A study of Schizosaccharomyces pombe with 36 samples.

Results

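The vacuolar protein sorting (vps) genes of the fission yeast Schizosaccharomyces pombe are 35 of the 7268 S. pombe genes counted in this study and 35 of the 5109 that matched a protein-coding gene. Members were all protein-coding genes whose standard symbol is vps followed only by digits. They were chosen by name and not by any measured value. All 35 passed the filter on low counts in every main fit. Homologues of budding yeast Vps proteins that carry another symbol in fission yeast, such as pik3, did4 and sst4, were not members.

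The vacuole is the lysosome of yeast, and vps genes were first found in budding yeast through mutants that secrete vacuolar hydrolases in place of delivering them. A sorting receptor binds a hydrolase in the late Golgi, retromer carries the emptied receptor back from the endosome, and ESCRT complexes pack membrane cargo into vesicles inside the endosome. The tethering complexes CORVET and HOPS, with SM proteins, a Rab5 exchange factor and a phosphatidylinositol 3-kinase complex, bring membranes together for fusion, while GARP tethers vesicles that return to the Golgi.

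RNA was sequenced from slr1 knockout cells (KO, strain yMAB001) and wild-type cells (WT, strain yAS99), with 3 cultures of each genotype, each begun from a single colony of plates kept at 32C. The product of slr1 is a La-related protein, a homologue of LARP1. All cultures received 4-thiouracil, a uracil analogue that cells build into new RNA. Each gave 5 libraries of RNA pulled down through this label, called labelled 5, 20, 50, 105 and 125, and 1 library of unselected RNA, called steady state. What unit these numbers are in was not stated. This made 36 libraries in 12 groups of 3. No label says that the knockout came from more than 1 isolate of the strain.

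S. pombe counts per library ran from 1260929 to 6517092 in labelled RNA, with a median of 3340804, and from 921427 to 4244433 at steady state, with a median of 1706793. Single members had between 0 and 2503 counts per library. The labels held in every library: slr1 stood at 13.5 to 25.9 CPM (S. pombe counts scaled to a common library size) in KO and 111 to 144 CPM in WT at steady state, and at 3.26 to 17.2 CPM in KO and 111 to 249 CPM in WT in labelled RNA. The cultures fell into 2 sets by the ratio of fly to human counts that the libraries also hold. At steady state this ratio was 0.990 to 1.07 in WT cultures 1 and 2 and KO culture 2 (set A), and 1.85 to 2.15 in WT culture 3 and KO cultures 1 and 3 (set B). Why the libraries hold human and fly RNA was not stated. All values below are shares of the S. pombe counts and not amounts per cell.

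At steady state the vps mRNAs were of middling abundance and spanned a wide range. Per kilobase of transcript, the median member stood at 34.4 CPM in KO, against 45.4 CPM over 5106 protein-coding genes, and at 35.1 CPM in WT, against 46.3 CPM over the same genes. The lowest and the highest member lay 152-fold apart in KO and 171-fold apart in WT. The most abundant was vps68, whose product works with Vps55 in transport from endosome to vacuole in budding yeast, at 433 CPM per kilobase in KO and 442 in WT. It was followed in KO by vps29 at 101 and vps32 at 98.9, and in WT by vps29 at 114 and vps55 at 105. These followers of vps68 overlapped one another between cultures. The 2 genes of the Vps13 family, which encode lipid transfer proteins of membrane contact sites, came last. vps1301 had 2.86 CPM per kilobase in KO and 2.59 in WT, and vps1302 had 4.06 in KO and 4.34 in WT. The mRNAs for the subunits of one complex were not equally abundant: retromer's vps29 stood at 101 CPM per kilobase in KO and 114 in WT, while its partner vps35 stood at 32.7 in KO and 39.7 in WT.

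Some members varied more between cultures than between genotypes. vps20, an ESCRT-III subunit, had 10.7, 58.0 and 18.4 CPM in KO cultures 1, 2 and 3, against 57.8, 19.5 and 10.7 CPM in WT cultures 1, 2 and 3. One culture of each genotype was high, and the genotypes overlapped. Its highest steady-state library was 5.43 times its lowest, the widest spread among members, followed by 3.48 times for vps15, the regulatory protein kinase of the phosphatidylinositol 3-kinase complex. The median member spread 1.76-fold over the 6 steady-state libraries, against 1.90-fold over 5717 genes, and 9 members spread at least 2-fold.

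**Figure D1:**
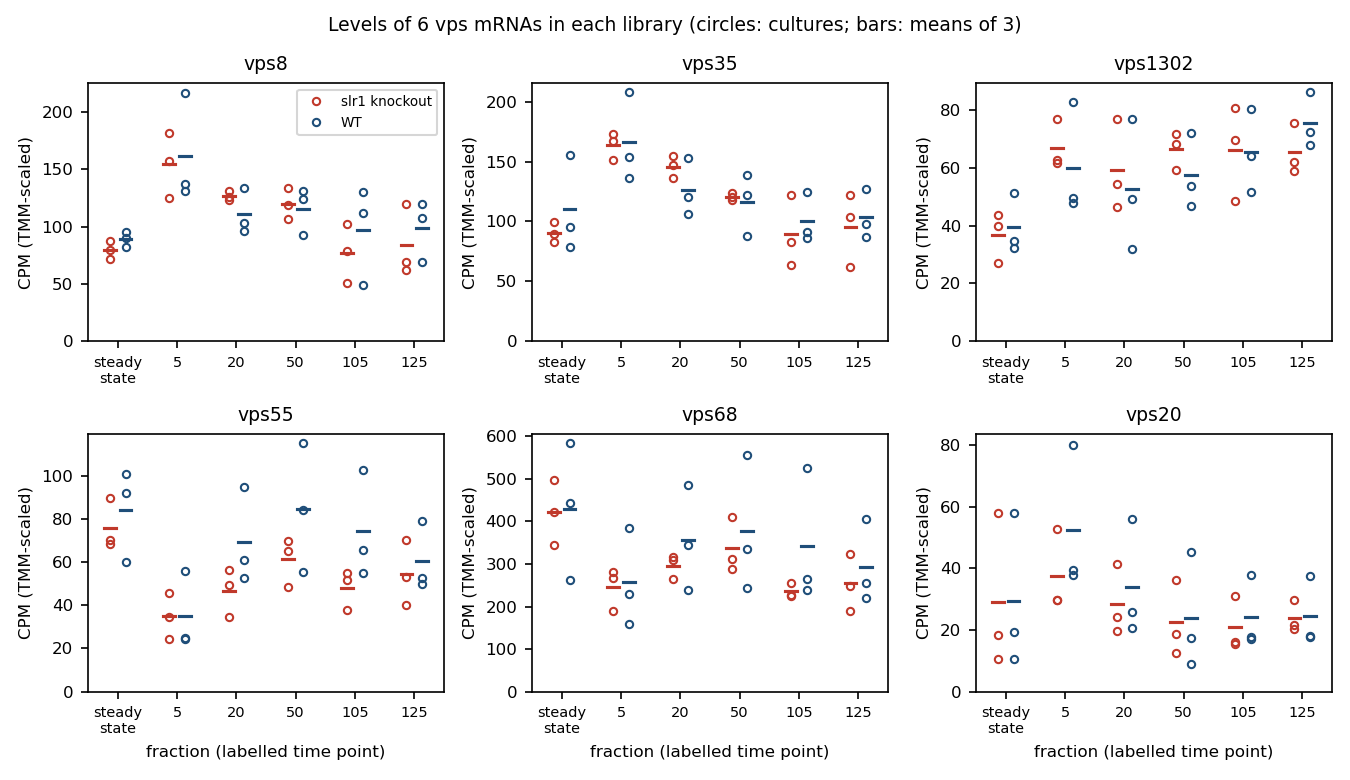
Level in CPM (vertical axes) of 6 vps mRNAs in each fraction (horizontal axes), with a circle for each culture and a bar for the mean of 3, KO in red left of WT in blue. On the means, vps8 and vps35 stand highest in labelled 5, vps55 stands lowest there, and vps1302 stays above steady state at every labelled time point. vps20 spreads widely between cultures of one genotype.

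The first question was which vps mRNAs made up more of the RNA labelled by time point 5 than of the steady-state pool. In the edgeR quasi-likelihood test with Benjamini-Hochberg adjustment at 0.05, 8 of 35 members were higher and 1 was lower in labelled 5 than at steady state in KO, beside 13.5% of 5823 genes higher and 13.2% lower. In WT 3 were higher and 2 lower, beside 10.6% of genes higher and 11.2% lower. The members higher in KO were vps1301, vps8, vps35, vps1302, vps16, vps1, vps17 and vps5, and those higher in WT were vps8, vps1301 and vps53. vps55 was lower in both genotypes, and vps29 was lower in WT. Over all 35 members the median log2 ratio was 0.36 in KO and 0.35 in WT, against 0.15 in both genotypes over 4896 protein-coding genes and 0.04 in KO and 0.06 in WT over all genes.

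vps8 encodes the CORVET subunit that binds Rab5 in budding yeast. In KO it had 157, 182 and 125 CPM in labelled 5, against 79.7, 87.9 and 71.4 CPM at steady state. In WT it had 217, 132 and 137 CPM in labelled 5, against 95.7, 82.1 and 90.5 CPM at steady state. Every labelled 5 library stood above every steady-state library of its genotype. The log2 fold change was 0.95 ± 0.30 in KO (SE, edgeR adjusted p = 0.0177, n = 3 cultures) and 0.86 ± 0.29 in WT (adjusted p = 0.0341). It was higher in 3 of 3 cultures of each genotype.

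Both Vps13 family genes were high in early labelled RNA. vps1301 had 57.9, 49.9 and 66.7 CPM in KO labelled 5, against 29.2, 25.3 and 29.2 CPM at KO steady state, a 2.09-fold difference with no overlap (log2 1.06 ± 0.24, edgeR adjusted p = 0.0019). In WT it had 44.3, 34.4 and 45.4 CPM in labelled 5, against 20.2, 20.1 and 35.4 CPM at steady state. Here the groups overlapped by 1 steady-state library, that of culture 3, although every culture rose (log2 0.75 ± 0.24, edgeR adjusted p = 0.0237). vps1302 had 61.5, 76.9 and 62.7 CPM in KO labelled 5, against 39.9, 43.7 and 27.0 CPM at KO steady state, with no overlap (log2 0.85 ± 0.29, edgeR adjusted p = 0.0291). In WT its log2 fold change was 0.60 ± 0.28, which passed with culture as a term and not without it (edgeR adjusted p = 0.123 without).

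Retromer genes did not all take one direction. vps35, the scaffold of the cargo-binding trimer, had 151, 167 and 173 CPM in KO labelled 5, against 82.6, 99.95 and 89.8 CPM at KO steady state, again with no overlap (log2 0.85 ± 0.26, edgeR adjusted p = 0.0154). The sorting nexins vps17 and vps5, which bend the membrane, rose in KO by 0.63 ± 0.15 and 0.62 ± 0.21 on the log2 scale. In WT vps35, vps17 and vps5 passed with culture as a term and not without it. vps29, the phosphoesterase-like subunit that binds Vps35, had 67.9, 72.8 and 70.4 CPM in WT labelled 5, against 97.4, 119 and 114 CPM at WT steady state. All 3 labelled 5 libraries lay below all 3 steady-state ones (log2 −0.65 ± 0.21, edgeR adjusted p = 0.0279). In KO vps29 had a log2 fold change of −0.35 ± 0.21 with overlap and did not pass. vps26, the arrestin-like part of the trimer, had log2 fold changes of −0.01 ± 0.34 in KO and 0.18 ± 0.33 in WT.

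vps16 and vps53 passed as high in one genotype each, and in both with culture as a term. vps16, a core subunit shared by HOPS and CORVET, had 87.6, 72.1 and 109 CPM in KO labelled 5, against 56.2, 54.6 and 48.7 CPM at KO steady state, with no overlap (log2 0.74 ± 0.22, edgeR adjusted p = 0.0138). vps53, a GARP subunit, had 245, 156 and 169 CPM in WT labelled 5, against 142, 98.7 and 111 CPM at WT steady state. Those groups did not overlap either (log2 0.69 ± 0.24, edgeR adjusted p = 0.0372). The dynamin-related GTPase gene vps1, which acts in membrane fission, rose in KO by 0.70 ± 0.21 on the log2 scale and had 0.57 ± 0.21 in WT, which missed the threshold (edgeR adjusted p = 0.0531) and passed with culture as a term (edgeR adjusted p = 0.00052).

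The member with the lowest early share was vps55. Its product is a small membrane protein that acts with Vps68 in budding yeast. It had 34.6, 45.5 and 24.6 CPM in KO labelled 5, against 89.7, 70.1 and 68.2 CPM at KO steady state. In WT it had 24.99, 55.6 and 24.4 CPM in labelled 5, against 60.2, 101 and 92.2 CPM at steady state. The groups did not overlap in either genotype, and labelled 5 was 0.462 times steady state in KO (log2 −1.11 ± 0.34, edgeR adjusted p = 0.0164) and lower still in WT (log2 −1.27 ± 0.34, adjusted p = 0.00777). vps68 had log2 fold changes of −0.77 ± 0.36 in KO and −0.74 ± 0.36 in WT and was lower in all 6 cultures, but passed only with culture as a term.

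**Figure D2:**
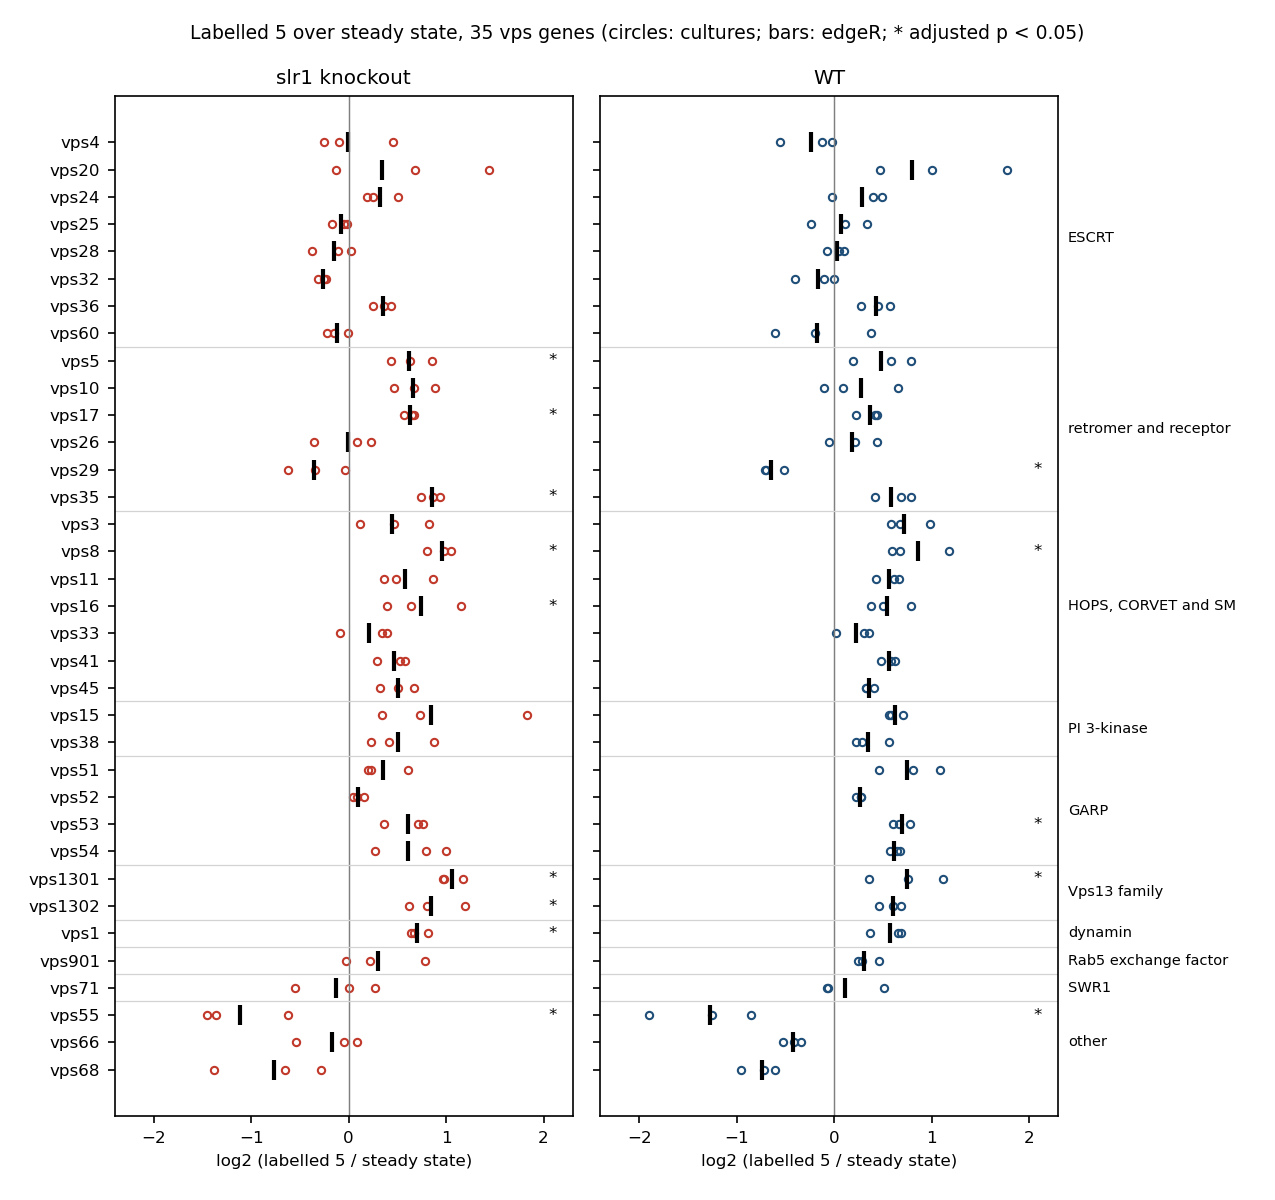
Log2 ratio of labelled 5 to steady state (horizontal axes) for the 35 vps genes (rows, grouped by role), KO at left and WT at right. Circles are single cultures, bars the edgeR estimates and asterisks an adjusted p under 0.05. Most rows from retromer to dynamin lie right of 0, the ESCRT rows lie around 0, and vps55, vps66 and vps68 lie at left.

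Among groups of 2 or more genes, the early share was lowest on the median for the 3 genes left outside the named role groups. It was next lowest for ESCRT genes. The 8 ESCRT members had a median log2 fold change of −0.04 in KO and 0.05 in WT, and none was called in either genotype. They ranged between −0.27 (vps32) and 0.36 (vps36) in KO. The 6 genes of retromer and the receptor vps10 had medians of 0.62 in KO and 0.32 in WT. The 7 genes of HOPS, CORVET and the SM proteins had medians of 0.50 in KO and 0.56 in WT, and all 7 lay above 0 in both genotypes. The 4 GARP genes had 0.48 in KO and 0.65 in WT, and the 2 genes of the 3-kinase complex, vps15 and vps38, had 0.68 in KO and 0.48 in WT. The remaining 3, vps55, vps68 and the acyltransferase gene vps66, had −0.77 in KO and −0.74 in WT. They are a leftover class, and ranged from −1.11 to −0.17 in KO and from −1.27 to −0.42 in WT. The Rab5 exchange factor gene vps901 had 0.30 ± 0.30 in KO and 0.31 ± 0.29 in WT, and vps71, which encodes a subunit of the nuclear SWR1 complex, had −0.13 ± 0.31 in KO and 0.11 ± 0.31 in WT. These role medians are descriptions of few genes each and were not tested against one another. The groups also differ in transcript length, which moved with the early share, as given below. ESCRT transcripts ran from 1004 to 1832 bases, and those of HOPS, CORVET and the SM proteins from 2134 to 3882 bases. Protein-coding genes of 1000 to 2000 bases had medians of 0.02 in KO and 0.03 in WT. Those of 2000 to 3000 bases had 0.46 in KO and 0.42 in WT, and those of 3000 to 4000 bases 0.60 and 0.54.

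All fractions of 1 culture share that culture, and with culture as a term in the fit more members passed. In KO 16 members were then higher and 2 lower, beside 29.6% of genes higher and 24.4% lower, and in WT 17 were higher and 4 lower, beside 28.5% and 24.4%. All 14 calls given above were among them. In WT the calls added for genes already named were vps1 (0.56 ± 0.13), vps16 (0.56 ± 0.13), vps35 (0.60 ± 0.16), vps17 (0.37 ± 0.10), vps5 (0.50 ± 0.12) and vps1302 (0.61 ± 0.16), and in KO vps53 was added (0.61 ± 0.17). vps68 was added as lower in both genotypes (−0.79 ± 0.18 in KO and −0.76 ± 0.18 in WT). Other added calls were vps54 (0.64 ± 0.15 in KO and 0.61 ± 0.14 in WT) and vps15 (0.82 ± 0.19 in KO and 0.62 ± 0.17 in WT). So were vps38 (0.51 ± 0.12 in KO and 0.34 ± 0.11 in WT) and the HOPS gene vps41 (0.47 ± 0.18 in KO and 0.57 ± 0.17 in WT). vps45 was added in KO (0.51 ± 0.16), and in WT vps3 (0.71 ± 0.19), vps52 (0.25 ± 0.09) and, as lower, vps66 (−0.42 ± 0.14). The only ESCRT genes to pass were vps36 in both genotypes (0.35 ± 0.13 in KO and 0.45 ± 0.12 in WT) and vps20 in WT (0.90 ± 0.22). vps10 passed in KO (0.66 ± 0.19) and had 0.26 ± 0.18 in WT, which did not pass. With this term 11 of the 18 KO calls and 12 of the 21 WT calls held when each of the 6 cultures was left out in turn, and without WT culture 1 the WT calls numbered 12. For the fits with a culture left out the share of all genes called is not given.

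Without the culture term the counts changed when single cultures were left out. In KO no member was called without KO culture 1, and only vps1301 without KO culture 3. In WT only vps55 was called without WT culture 1, 2 members without each of WT culture 2, WT culture 3 and KO culture 1, and 8 without KO culture 2. For these fits the share of all genes called is not given, so whether it moved alike cannot be told. Within set A alone edgeR called 0 members in KO, beside 0% of genes, and 2 in WT, beside 6.44% of genes. Within set B alone it called 15 members in KO, beside 43.7% of genes, and 3 in WT, beside 15.7%. KO in set A and WT in set B are 1 culture each, assumed to vary like the others. All 14 calls kept their direction within each set. The directions were steadier than the calls: 19 members lay above steady state in all 6 cultures, beside 31.4% of genes, and 3 lay below in all 6 (vps29, vps55 and vps68), beside 26.1% of genes.

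KO and WT gave like early shares. Over the 35 members the log2 ratios of the genotypes had a Pearson r of 0.908 and a Spearman rho of 0.817, and 31 had the same sign. The points share their libraries, and transcript length moves with both ratios, as given below. When the early share of KO was tested against that of WT, edgeR called 0 members and 0 of 5823 genes (0%), also with culture as a term. DESeq2 called 0 members, and 0 had an unadjusted edgeR p under 0.05. The smallest p belonged to vps17, with a difference of 0.26 ± 0.22, followed by vps10 with 0.38 ± 0.35 and vps29 with 0.29 ± 0.30 (KO minus WT, log2, edgeR adjusted p = 1 for each). Differences of about the size of these standard errors could not be seen with 3 cultures of each genotype, and larger ones could be missed as well.

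The next question was how the labelled pool came to resemble steady state. The median log2 ratio of labelled RNA to steady state over the 35 members was 0.37, 0.27, 0.07, −0.04 and 0.01 at time points 5, 20, 50, 105 and 125 in KO, and 0.36, 0.11, 0.06, 0.03 and 0.04 in WT. Most of the early excess was gone by time point 50 in KO and by time point 20 in WT. Over 4896 protein-coding genes the medians were 0.15, 0.11, 0.08, 0.06 and 0.07 in KO. In WT they were 0.15, 0.06, 0.03, 0.04 and 0.04. The protein-coding median thus also came down, and sooner in WT than in KO. No difference between these courses was tested. Of the 35 members, 24 in KO and 23 in WT had their highest labelled level at time point 5, against 42.2% of protein-coding genes in KO and 45.7% in WT.

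vps35 followed this course. In KO it averaged 90.8 CPM at steady state and then 164, 146, 121, 89.5 and 95.8 CPM at the 5 labelled time points, and in WT 110 CPM and then 166, 126, 116, 101 and 104 CPM. The Vps13 gene vps1302 did not return: it averaged 36.9 CPM at steady state and 67.0, 59.3, 66.5, 66.3 and 65.6 CPM when labelled in KO, and 39.4 CPM and then 60.0, 52.7, 57.5, 65.4 and 75.6 CPM in WT. vps55 ran the other way, with 76.0 CPM at steady state and 34.9, 46.6, 61.2, 48.2 and 54.4 CPM when labelled in KO, and 84.3 CPM and then 35, 69.4, 84.7, 74.5 and 60.5 CPM in WT. It reached its highest labelled level at time point 50 in both genotypes.

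**Figure D3:**
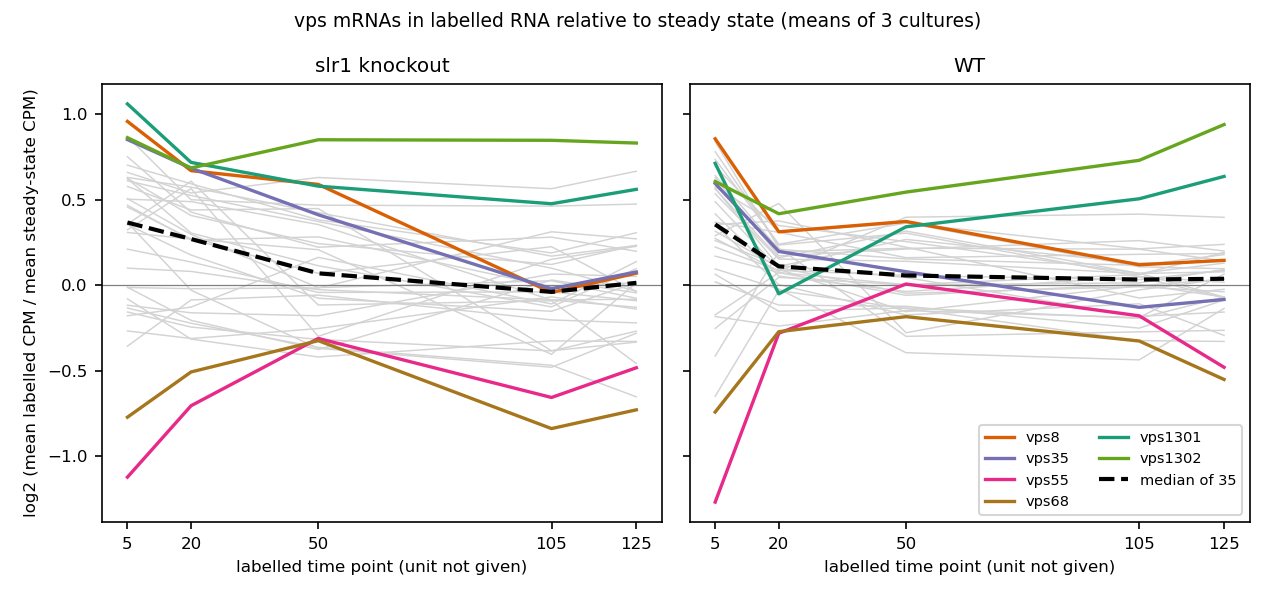
Log2 ratio of the mean labelled to the mean steady-state CPM (vertical axes) against labelled time point (horizontal axes, unit not given), KO at left and WT at right. Grey lines are single vps genes, coloured lines the 6 named genes and the dashed line the median of 35, which comes down from 0.37 in KO and 0.36 in WT at time point 5 to near 0.

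In labelled 125 against steady state no member passed in either genotype, beside 1.2% of genes in KO and 0.567% in WT. Unadjusted edgeR p-values were under 0.05 for 3 of 35 members in KO, beside 17.1% of genes, and 2 in WT, beside 9.84% of genes, and DESeq2 called 0 in both. The Vps13 genes had the smallest p. vps1302 had 62.2, 75.7 and 58.8 CPM in KO labelled 125, against 39.9, 43.7 and 27.0 CPM at KO steady state, and 86.5, 72.6 and 67.9 CPM in WT labelled 125, against 51.5, 32.3 and 34.6 CPM at WT steady state. Neither genotype's groups overlapped (log2 0.82 ± 0.29 in KO and 0.93 ± 0.28 in WT, edgeR adjusted p = 0.131 for each).

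vps1301 had 47.9, 42.4 and 33.1 CPM in KO labelled 125, against 29.2, 25.3 and 29.2 CPM at KO steady state, and vps10, the sorting receptor, had 179, 214 and 204 CPM against 103, 162 and 111 CPM. The groups did not overlap for either gene in KO. With culture as a term 3 members passed as higher and 2 as lower in KO, beside 13.4% and 10.3% of genes, and 2 as higher and 2 as lower in WT, beside 8.21% and 5.19%. Those were vps1302 (0.81 ± 0.17 in KO and 0.97 ± 0.15 in WT), vps1301 (0.60 ± 0.20 in KO and 0.69 ± 0.18 in WT), vps55 (−0.47 ± 0.17 in KO and −0.46 ± 0.15 in WT) and vps68 (−0.74 ± 0.18 in KO and −0.51 ± 0.17 in WT), and in KO also vps10 (0.67 ± 0.19). Only vps1302 passed in each genotype whichever culture was left out. The KO count was 2 without KO culture 1, 2 without KO culture 3 and 3 without WT culture 2, and the WT count dropped to 1 when WT culture 2 was left out and to 2 when WT culture 3 was. For the fits with a culture left out the share of all genes called is not given, so whether it moved alike cannot be told.

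In labelled 125 against labelled 5 the members lay low relative to other S. pombe genes, and the sign of their median turned under scaling to the human counts. The median log2 fold change was −0.38 in KO and −0.36 in WT, under the main scaling, against −0.08 over all genes in each, and 25 of 35 members lay below the median gene in both genotypes. No member passed in edgeR, beside 8.48% of genes in KO and 8.76% in WT. Unadjusted edgeR p was under 0.05 for 10 of 35 members in each genotype, beside 22.7% of genes in KO and 23.0% in WT. DESeq2 called 3 lower in KO (vps8, vps35 and vps45) and 0 in WT. The share of all genes that DESeq2 called is not given, so these 3 cannot be set against it. Its unadjusted p was under 0.05 for 9 of 35 members in each genotype, beside 23.0% of genes in KO and 23.5% in WT. In KO the smallest p belonged to vps45 (−0.62 ± 0.21), an SM protein gene, vps35 (−0.76 ± 0.25) and vps8 (−0.87 ± 0.29), each with an edgeR adjusted p close to the threshold (0.0593, 0.0593 and 0.0595). vps8 had 69.4, 119 and 62.2 CPM in KO labelled 125, against 157, 182 and 125 CPM in KO labelled 5, with no overlap. In WT the smallest p belonged to vps38 (−0.64 ± 0.23), vps35 (−0.68 ± 0.25) and vps36 (−0.49 ± 0.18). vps35 had 128, 97.7 and 86.6 CPM in WT labelled 125, against 208, 154 and 136 CPM in WT labelled 5, with no overlap.

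With culture as a term 16 members were lower and 1 higher in KO, beside 19.7% and 17.5% of genes, and 15 were lower and 3 higher in WT, beside 19.8% and 20.2%. vps8 (−0.88 ± 0.19 in KO and −0.72 ± 0.18 in WT), vps35 (−0.77 ± 0.17 in KO and −0.67 ± 0.16 in WT) and vps38 (−0.58 ± 0.11 in KO and −0.66 ± 0.11 in WT) passed as lower in both genotypes. vps55 passed as higher in both (0.64 ± 0.17 in KO and 0.84 ± 0.16 in WT). The KO count was 10 without KO culture 3 and 11 without WT culture 2, and the WT count dropped to 8 when WT culture 1 was left out and to 11 when WT culture 2 was. Without the culture term 4 members passed in KO without WT culture 1, 2 without KO culture 2 and 1 without each of WT cultures 2 and 3, and 1 passed in WT without WT culture 1. The share of all genes called is not given for these fits, so whether it moved alike cannot be told.

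Scaling to the human counts moved the median of all genes in this comparison by 0.72 in KO and 1.03 in WT on the log2 scale. Under it the members' median was 0.35 in KO and 0.71 in WT. Relative to the median gene the members stood at −0.29 in KO and −0.25 in WT under human scaling, against −0.31 in KO and −0.28 in WT under the main scaling.

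The comparison of the knockout with WT asked whether vps mRNAs change without slr1. No member passed in edgeR at steady state or at any labelled time point. The genes called were 0.0186% of 5371 at steady state and 0.0172% of 5812 at each labelled time point, which is slr1 itself. DESeq2 called 0 members in each of these comparisons. Unadjusted edgeR p-values were under 0.05 for 1 member at labelled 5, 1 at labelled 20 (vps1301 in both) and 0 at steady state and at labelled 50, 105 and 125. The members' median log2 fold change was −0.00 at steady state and 0.01, 0.10, −0.00, −0.01 and −0.02 at labelled 5, 20, 50, 105 and 125. The median standard error of a member was 0.27 at steady state and 0.24 at each labelled time point. Changes of this size or smaller in single genes could not be seen, and larger ones could be missed as well. The largest, 0.92 for vps1301 at labelled 20, did not pass.

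**Figure D4:**
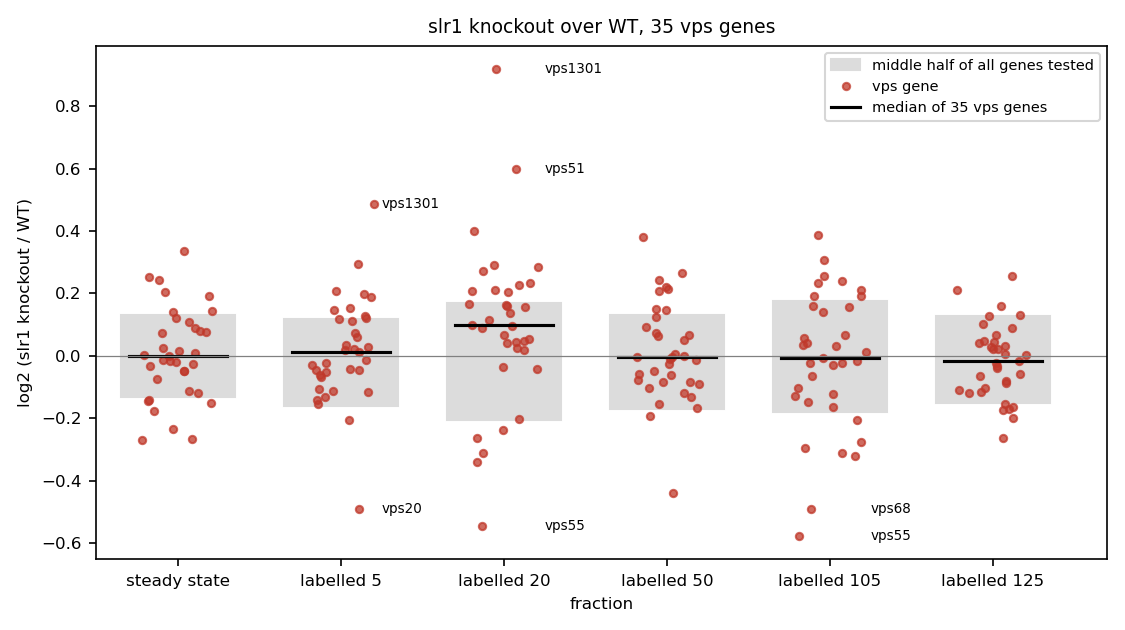
Log2 fold change of KO over WT (vertical axis) for the 35 vps genes in each fraction (horizontal axis). Red points are genes, black bars their medians and grey boxes the span from the lower to the upper quartile of all genes tested. The medians lie between −0.02 and 0.10, and vps1301 stands highest, at 0.92, in labelled 20.

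The gene that stood out most was vps1301. In labelled 20 it had 44.1, 40.5 and 53.1 CPM in KO, against 29.6, 20.8 and 22.8 CPM in WT. In labelled 5 it had 57.9, 49.9 and 66.7 CPM in KO, against 44.3, 34.4 and 45.4 CPM in WT. Every KO library lay above every WT library in both fractions. The log2 fold change was 0.92 ± 0.24 in labelled 20 (edgeR adjusted p = 0.999) and 0.49 ± 0.23 in labelled 5 (edgeR adjusted p = 1), so neither passed over all genes. It was 0.19 ± 0.33 at steady state, 0.38 ± 0.24 in labelled 50, 0.16 ± 0.24 in labelled 105 and 0.10 ± 0.23 in labelled 125. Its paralogue vps1302 was not among the 3 members of smallest p in any fraction.

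vps55 had the lowest fold change of all members at labelled 20, 50 and 105. In labelled 105 it had 55.0, 51.9 and 37.7 CPM in KO, against 55.1, 103 and 65.8 CPM in WT. These groups did not overlap, but the gap between them was under 1 CPM (log2 −0.58 ± 0.33, edgeR adjusted p = 1). At steady state the smallest p belonged to vps26, with 107, 68.4 and 95.2 CPM in KO, against 72.1, 52.4 and 93.8 CPM in WT. The groups overlapped (log2 0.34 ± 0.29, edgeR adjusted p = 1). vps38 (−0.27 ± 0.26) and vps10 (−0.24 ± 0.24) came next and overlapped as well.

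In labelled 5 the other genes of smallest p were vps17 (0.21 ± 0.16) and vps20 (−0.49 ± 0.51), and in labelled 20 they were vps55 (−0.55 ± 0.33) and vps17 (0.23 ± 0.16). In labelled 50 vps17 had 0.22 ± 0.17 and vps55 −0.44 ± 0.33. In labelled 105 vps68 had −0.49 ± 0.34 and the ESCRT-III disassembly ATPase gene vps4 0.39 ± 0.32, and in labelled 125 vps71 had −0.26 ± 0.31, vps4 0.26 ± 0.32 and vps24 0.21 ± 0.26. All of these groups overlapped between genotypes. Human scaling moved the median of all genes by −0.28 at steady state and by 0.47, 0.12, 0.29, −0.36 and 0.13 at labelled 5, 20, 50, 105 and 125. Relative to the median gene the members' median stayed between −0.03 and 0.10 under it.

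Transcript length moved with the early share. The members' annotated transcripts ran from 693 bases (vps71) to 9754 bases (vps1301), with a median of 2222 bases against 1682 for protein-coding genes. The Spearman correlation of length with the log2 ratio of labelled 5 to steady state was 0.82 in KO and 0.61 in WT over the 35 members, and 0.67 in KO and 0.61 in WT over 4896 protein-coding genes. The members called high without the culture term ran from 2222 bases (vps5) to 9754 bases (vps1301), among them vps1 (2591 bases), vps8 (3882 bases) and vps1302 (9082 bases). vps55 (800 bases), vps68 (973 bases) and vps29 (965 bases), which lay low in all 6 cultures, are short. Not every short member lay low. vps20 (1079 bases) had 0.90 ± 0.22 in WT with culture as a term, and vps51 (805 bases) lay above steady state in all 6 cultures. When each member was set beside protein-coding genes of its own length class, 19 of 35 in KO and 20 of 35 in WT lay above the class median. In labelled 125 over labelled 5 the correlation was −0.34 in KO and −0.23 in WT over the members, and −0.40 in KO and −0.35 in WT over protein-coding genes, and 8 members in KO and 11 in WT lay above the class median. In labelled 125 over steady state, where vps1302 and vps1301 stood high, the correlation was 0.68 in KO and 0.71 in WT over the members, and 0.58 in KO and 0.60 in WT over protein-coding genes. The 307 protein-coding genes longer than 4000 bases had medians of 0.45 in KO and 0.44 in WT in that comparison, against log2 fold changes of vps1302 of 0.82 in KO and 0.93 in WT. There 10 members in KO and 9 in WT lay above the median of their class.

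**Figure D5:**
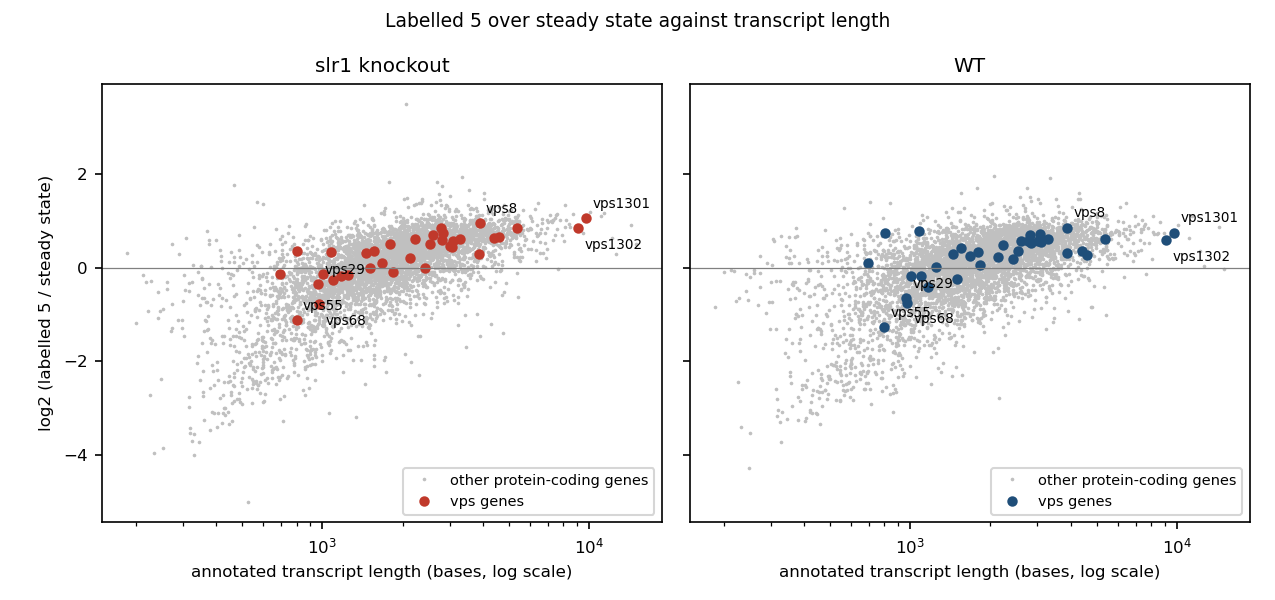
Log2 ratio of labelled 5 to steady state (vertical axes) against annotated transcript length in bases (horizontal axes, log scale), KO at left and WT at right. Grey dots are other protein-coding genes and coloured points the 35 vps genes, which lie within the rising cloud of all genes, with a Spearman correlation of 0.82 in KO and 0.61 in WT.

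The share of U, the base that the label replaces, had a weaker relation to the early share than length had: the Spearman correlation was −0.04 in KO and 0.04 in WT over the members, and 0.18 in KO and 0.16 in WT over 4896 protein-coding genes. The 2 members richest in U were vps55 at 40.6% and vps68 at 39.6%, against a median of 32.5% over members, and both had low early shares. The part of length or base composition in these results was not tested. In the ASM294v3 annotation 31 of the 35 members overlap a gene on the opposite strand, 18 of them over more than 50% of their length, and whether the counting used strand was not stated. For those members reads from the opposite strand cannot be told apart if strand was not used.

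Of the other genes of the pathway, taken from 6 lists chosen by name, a minority of each list passed in labelled 5 over steady state. The shares over all genes in that comparison were 13.5% higher and 13.2% lower in KO and 10.6% higher and 11.2% lower in WT, with medians of 0.04 in KO and 0.06 in WT, and no list was tested against them. Of the 10 ESCRT genes with other names that were tested, 1 rose and 2 fell in KO, and 0 rose and 2 fell in WT. did4, an ESCRT-III subunit gene, fell in both genotypes, with log2 fold changes of −1.42 in KO and −1.46 in WT, and did2, another, fell by 0.91 in KO and had −0.82 in WT, which also passed. bro1, an ESCRT-associated gene, rose by 0.94 in KO. Of 10 genes on the phosphoinositide list, 2 rose and 0 fell in each genotype. One of the 10, mtm1, is annotated as a manganese transporter and did not pass. pik3, the catalytic subunit that works with Vps15, rose by 0.83 in KO and 0.73 in WT, and vac7, a regulator of phosphoinositide synthesis in budding yeast, rose by 0.71 in KO and 0.87 in WT.

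Of 13 Rabs, tethers and SNAREs, 1 rose and 2 fell in KO, and 1 rose and 1 fell in WT. pep7, a tether of early endosomes, rose by 0.53 in KO and 0.54 in WT. The vacuolar Rab gene ypt7 fell in both, with −0.46 in KO and −0.51 in WT, and the SNARE gene syb1 fell by 0.99 in KO. Of 14 sorting nexins, receptors and adaptors, 3 rose and 0 fell in KO, and 5 rose and 1 fell in WT. Without mug174, which is annotated as coilin, the list had 13 genes, of which 3 rose and 0 fell in KO and 4 rose and 1 fell in WT. The AP-3 adaptor gene apl6 rose by 0.85 in KO and 0.66 in WT, and gga22 fell by 0.66 in WT.

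The vacuolar ATPase acidifies the vacuole. Of its 16 genes tested, 0 rose and 4 fell in each genotype, and the median log2 fold change was −0.36 in KO and −0.37 in WT. Transcript length, which moved with the early share over protein-coding genes, was not set beside these values. vma10 had −2.85 in KO and −2.95 in WT, vma3 had −1.54 in KO and −1.64 in WT, and vma11 had −1.09 in KO and −1.33 in WT. Of 24 genes on the list of vacuolar hydrolases and transporters, 3 rose and 1 fell in KO and 3 rose and 0 fell in WT. One of the 3 in each genotype was zrg17 (0.74 in KO and 0.87 in WT), annotated as a Golgi zinc importer. Without it and zhf1, annotated as an importer of the endoplasmic reticulum, 2 of 22 rose and 1 fell in KO and 2 rose and 0 fell in WT. Among them vtc4, of the polyphosphate-making complex, rose by 0.98 in KO and 0.85 in WT, and the copper transporter gene ctr6 fell by 1.31 in KO. With culture as a term, under which 29.6% of all genes were higher and 24.4% lower in KO and 28.5% higher and 24.4% lower in WT, more genes of each list passed. Of 24 hydrolases and transporters 15 were then higher and 1 lower in KO, and 14 higher and 2 lower in WT. Of 14 sorting nexins, receptors and adaptors 8 were higher and 0 lower in KO, and 8 higher and 2 lower in WT. Of 10 phosphoinositide genes 6 were higher and 0 lower in each genotype, and of 10 ESCRT genes 4 were higher and 2 lower in each. Of 13 Rabs, tethers and SNAREs 5 were higher and 3 lower in KO, and 5 higher and 5 lower in WT. Of 16 vacuolar ATPase genes 1 was higher and 6 lower in KO, and 0 higher and 7 lower in WT. In KO over WT 0 genes of these 6 lists passed in any fraction.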

How the data were processed

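The authors deposited 1 file of raw read counts per library, covering S. pombe, human and fly genes. Per the submitters' processing notes, the tools were R 3.5.2, HTSeq 0.6.1p2, STAR 2.5.2a and Trimmomatic 0.36. Genome builds, annotation and strand setting: not given in the sources used here. Unassigned reads stayed out of library sizes: of all reads counted in a library, those with no feature were 3.62 to 8.49%, those with no unique place 5.82 to 48.0% and ambiguous ones 0.367 to 0.752%.

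Symbols, products and transcript lengths came from RefSeq's ASM294v3 tables, which matched 6861 of 7268 S. pombe identifiers and gave 4425 a symbol. Library titles gave genotype, culture and fraction. The members and gene lists were chosen with earlier results of these data known.

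S. pombe counts were fitted with edgeR 4.0.16 in R 4.3.3 (TMM scaling, filterByExpr at a minimum count of 10, quasi-likelihood F test, Benjamini-Hochberg adjustment over all genes, threshold 0.05). KO over WT was fitted in the 6 steady-state libraries and in the 30 labelled libraries, and the other contrasts in all 36. Standard errors are the log2 fold change divided by the square root of F. The script was tested on simulated counts drawn without a culture effect, so that test does not cover fractions that share a culture. Levels are TMM-scaled CPM, and ratios within a culture add 0.5 CPM. Members were named by rule: per comparison, up to 5 called members of the largest change in each direction that averaged at least 10 CPM, or the 3 of smallest p where none was called. From the related lists up to 3 called genes were named.

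Fractions of one culture deviated together from their group means (18 pairs, correlations 0.183 to 0.809), so the culture pairs them, and counts from the fit with culture as a term are given beside those without it, and its values for members the text names. Single colonies make the replicates separate cultures. Alternatives were DESeq2 1.42.0 and its size factors, other filters, human-count scaling, the culture sets, and leaving out each culture. Human-count scaling was not run for labelled RNA over steady state. Depth bounds the precision: vps51 had a count of 0 in KO labelled 125 culture 3, where 3 counts, the limit that a count of 0 allows, are 1.80 CPM (counting error only). Promoter motifs were not searched.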

Additional observations from a re-analysis of the deposited data

How the results depend on the processing

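All 14 calls, of 11 different members, kept their direction in every alternative run for them. Human-count scaling was not run for labelled 5 over steady state, where all 14 lie, so their direction under it is not known. Where no share of all genes is given for a setting, here or above, its count of members cannot be set against that of all genes. Counts of members called were within 1.5 times of the main count, except as follows. For KO labelled 5 over steady state (9 called), the count was 14 with culture set as a term, 0 in set A alone, 15 in set B alone and 18 with the replicate block of culture. For WT labelled 5 over steady state (5 called) it was 16, 2, 3 and 21 under the same settings. For labelled 125 over steady state (0 called), KO gave 2 with the set term, 2 in set B alone and 5 with the block, and WT gave 2 with the set term and 4 with the block. For labelled 125 over labelled 5 (0 called), KO gave 3 by DESeq2, 1 without a filter, 6 with the set term, 8 in set B alone and 17 with the block, of which 1 was higher (the unfiltered and DESeq2 calls, those with the set term and those in set B were lower). WT gave 6 with the set term and 1 in set B alone, all lower, and 18 with the block, of which 3 were higher. Under human scaling 1 member in KO (vps55) and 4 in WT (vps55, vps66, vps1302 and vps10) were called, all higher. Under it 95.9% of all genes in KO and 99.4% in WT lay above 0. Its unadjusted edgeR p was under 0.05 for 2 of 35 members in KO, beside 22.4% of genes. In WT it was for 9 members, beside 42.0% of genes. The cause of these exceptions was not tested. Set A holds 1 KO and set B 1 WT culture, so within a set those groups have 1 library and are assumed to vary like the others.

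Leaving out each culture gave 0 to 13 calls for KO and 1 to 8 for WT in labelled 5 over steady state, 0 to 4 for KO and 0 to 1 for WT in labelled 125 over labelled 5, and 0 to 0 elsewhere. With the culture block, an alternative added after seeing the data, the ranges were 12 to 21 for KO and 12 to 25 for WT in labelled 5 over steady state, 2 to 5 and 1 to 4 in labelled 125 over steady state, 10 to 18 and 8 to 21 in labelled 125 over labelled 5, and 0 to 0 for the difference between genotypes.

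Culture numbers did not pair KO with WT (correlations −0.531 to 0.612, 6 of 18 KO libraries closest to their own number), and a block on the number gave 0 called members in each fraction. Low counts limit vps51, whose steady-state level was 6.58 to 13.2 CPM.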
